A study of Mus musculus with 12 samples.

Results

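Prune2, Gramd2, Slc2a6, Papln, Pla2g3 and Dnaaf3 are 6 of the 16106 genes in the table, and 6 of the 15093 genes that passed the filter on low values. They were picked by name, because their values with pravastatin were far above low vehicle values in all 6 cultures and because none of them makes sterols or fatty acids. The pravastatin against vehicle values below therefore chose these genes, and they are given as a description with no test. The cells were neural stem and progenitor cells (NSPCs) from the cortex of single C57BL/6 mouse embryos at embryonic day 14.5, grown as neurospheres, which are floating clusters of dividing progenitors, and used at passage 3. The 4 groups, with 3 libraries each, were male and female NSPCs given pravastatin at 10 μM for 24 hours, and male and female NSPCs given vehicle (PBS) for the same time. All groups shared the strain, age, passage and growth medium, and a culture stands for 1 embryo. Vehicle and pravastatin libraries with the same sex and number were taken as 1 culture.

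Pravastatin inhibits HMG-CoA reductase, an early enzyme of the cholesterol biosynthetic pathway (CBP). Cells that run short of sterols release SREBP2, a transcription factor held in the endoplasmic reticulum membrane, which enters the nucleus and raises transcription of CBP genes, often together with the factors NF-Y and Sp1. The 6 genes described here have other known roles. Prune2 encodes a large protein with a BCH domain, a lipid- and GTPase-binding fold, and Gramd2 encodes a GRAM domain protein anchored in the endoplasmic reticulum where it meets the plasma membrane. Slc2a6 encodes the hexose transporter GLUT6, found on lysosomes. Papln encodes papilin, a secreted matrix glycoprotein with thrombospondin repeats like those of the ADAMTS proteases, and Pla2g3 a secreted phospholipase A2 that frees fatty acids from phospholipids. Dnaaf3 encodes a cytoplasmic factor that helps to assemble the dynein arms of motile cilia, and its loss causes immotile cilia in humans.

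Values are reads per gene divided by an effective library size, similar to CPM, and each value was a whole number of reads times 1 factor per library. Libraries held 13353619 to 18202587 reads with pravastatin and 16117714 to 18422845 with vehicle, so that 1 read was worth 0.0523 to 0.0760. The 12 listed stem cell and radial glia markers were all in the table, with Nes between 750 and 1234 in pravastatin libraries and between 624 and 1231 in vehicle libraries, and none of 7 microglia markers was in it. Glial markers were high in the 4 libraries of female cultures 2 and 3. The summed astrocyte markers (6 of 6 in the table) ran from 565 to 1292 there, against 164 to 380 in the other 8 libraries, and the summed oligodendrocyte markers (5 of 7 in the table, without Mog and Mobp) from 361 to 859, against 98.1 to 167. Results that rest on these cultures are given with and without them. In such bulk libraries, fewer cells that express a gene and less RNA per cell cannot be told apart.

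In the GENCODE annotation of GRCm38, Prune2 lies at chr19:16956118-17223932 on the plus strand, Gramd2 at chr9:59680144-59718874 (plus), Papln at chr12:83763634-83792382 (plus), Slc2a6 at chr2:27021363-27027998 (minus), Dnaaf3 at chr7:4522933-4532453 (minus) and Pla2g3 at chr11:3488284-3499350 (plus). All 6 are protein-coding and lie on different chromosomes. Their merged exons cover 20297, 6138, 5635, 3211, 2224 and 4696 bases in the same order. The last exon bases of Dnaaf3 meet Tnni3, which encodes a troponin subunit of heart muscle. Both genes are on the same strand and share 86 exon bases, and the default mode of the counting program leaves out reads that fall on both genes. Pla2g3 shares 401 exon bases with Inpp5j on the opposite strand, a gene not in the table, and Dnaaf3 shares 281 with Gm15873, likewise on the opposite strand and not in the table. The libraries were made with a stranded kit.

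Because the 6 genes were higher together, the letters before their starts are shown. RefSeq promoter windows (GRCm38.p6) of 250 bases before to 50 bases after a start were given for 5 of the 6 genes. The 250 bases before the start follow, read 5′ to 3′ along the gene, with CCAAT, the box bound by NF-Y, in capitals on either strand (ATTGG on the other). For Gramd2, which has 4 windows, the one nearest the annotated gene start is shown.
Prune2 (chr19:16955868-16956117, plus strand): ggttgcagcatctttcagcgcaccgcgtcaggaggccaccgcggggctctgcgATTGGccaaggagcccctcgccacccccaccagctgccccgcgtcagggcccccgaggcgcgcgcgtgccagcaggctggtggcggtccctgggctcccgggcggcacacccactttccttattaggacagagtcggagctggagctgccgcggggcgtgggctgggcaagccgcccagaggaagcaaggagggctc
Gramd2 (chr9:59679904-59680153, plus strand): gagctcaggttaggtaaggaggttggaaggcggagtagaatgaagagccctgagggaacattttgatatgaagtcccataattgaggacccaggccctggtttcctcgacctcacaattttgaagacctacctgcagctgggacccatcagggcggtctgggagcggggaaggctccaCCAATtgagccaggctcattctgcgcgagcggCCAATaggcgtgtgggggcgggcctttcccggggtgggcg
Papln (chr12:83763384-83763633, plus strand): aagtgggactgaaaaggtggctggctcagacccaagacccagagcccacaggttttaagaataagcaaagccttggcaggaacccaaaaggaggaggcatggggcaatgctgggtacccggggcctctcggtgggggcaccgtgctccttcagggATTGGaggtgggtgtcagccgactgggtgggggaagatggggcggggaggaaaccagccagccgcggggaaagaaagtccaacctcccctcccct
Slc2a6 (chr2:27027999-27028248, minus strand): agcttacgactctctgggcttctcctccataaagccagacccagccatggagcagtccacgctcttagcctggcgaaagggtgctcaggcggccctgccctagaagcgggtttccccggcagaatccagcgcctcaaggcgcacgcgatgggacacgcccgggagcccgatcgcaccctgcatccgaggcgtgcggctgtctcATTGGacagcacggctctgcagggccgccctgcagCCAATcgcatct
Dnaaf3 (chr7:4532466-4532715, minus strand): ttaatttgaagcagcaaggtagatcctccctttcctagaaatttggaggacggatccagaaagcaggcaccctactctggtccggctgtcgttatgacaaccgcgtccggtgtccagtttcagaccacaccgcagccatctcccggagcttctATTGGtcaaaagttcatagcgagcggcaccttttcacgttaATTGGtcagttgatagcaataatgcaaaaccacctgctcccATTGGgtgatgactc

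CCAAT stood in the windows of 5 of 5 genes, while 41.1% of 27025 genes with a window held it on either strand. These 27025 genes were not limited to those with a value in these libraries. It began at 197 bases before the start in Prune2, at 95 in Papln, at 72 and 40 in Gramd2, at 47 and 12 in Slc2a6, and at 97, 56 and 15 in Dnaaf3. Dnaaf3 thus held 3 copies, more than the windows shown for the other 4 genes. GGGCGG, the GC box bound by Sp1, stood in 4 of 5 genes (38.2% of the 27025 genes) and had no match in Dnaaf3. TCACNCCAC, a core of the sterol regulatory element bound by SREBP, stood in 0 of 5 (1.44% of the 27025 genes), and so did the E-box CACGTG (8.09%). Of 15 CBP genes with a window, 14 held CCAAT, 14 GGGCGG, 3 CACGTG and 1 TCACNCCAC. All 4 motifs were searched on both strands and a match is a description of these letters alone. In the windows shown no match shared a base with another.

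**Figure D1:**
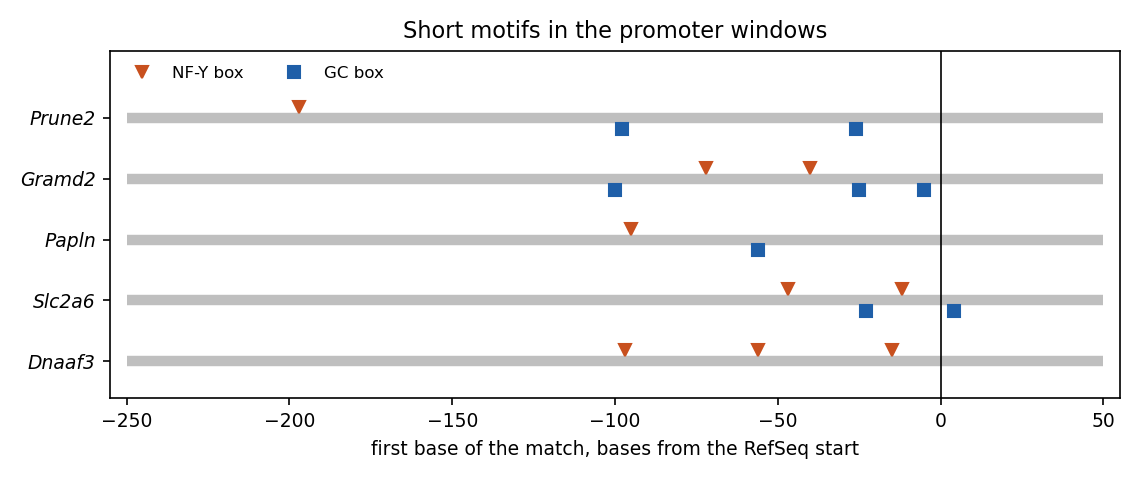
Places of the NF-Y box (triangles) and the GC box (squares) in the promoter windows of 5 genes (rows), by the distance in bases of the first base of each match from the RefSeq start. All 5 windows held an NF-Y box, at 197 bases before the start in Prune2 and within 97 bases of it in the others, and Dnaaf3 held no GC box.

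Prune2 had the highest rank of the 6 genes, second of 15093 by log2 change. It stood at 139, 145 and 181 in male cultures 1, 2 and 3 with pravastatin (1829, 2455 and 2399 reads), against 9.64, 9.79 and 10.3 with vehicle (163, 161 and 197 reads). In female cultures 1, 2 and 3 it stood at 123, 29.8 and 52.2 with pravastatin (2233, 451 and 785 reads), against 9.01, 3.58 and 5.59 with vehicle (161, 62 and 93 reads). The lowest pravastatin library was 2.89 times the highest vehicle library. Female cultures 2 and 3 were the lowest of the 6 with either treatment. The log2 change (pravastatin minus vehicle) was 3.56 ± 0.30 (SE), and the ratio of group means was 14.0.

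Gramd2 was low in every vehicle library. Values in male cultures 1, 2 and 3 were 14.4, 17.1 and 16.6 with pravastatin (190, 291 and 220 reads), against 2.01, 1.70 and 1.72 with vehicle (34, 28 and 33 reads). Female cultures 1, 2 and 3 had 10.9, 5.48 and 9.58 with pravastatin (198, 83 and 144 reads), against 1.398, 0.404 and 1.08 with vehicle (25, 7 and 18 reads). The 2 treatments did not overlap, and with either treatment the female cultures were below the male ones and female culture 2 was lowest. The log2 change was 2.75 ± 0.19 (SE, rank 4) and the ratio of means 8.91. Its size depended on the added constant, with 3.10 at a constant of 0.1, 2.44 at a constant of 1 and 3.15 with edgeR on the reads.

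Slc2a6 was low with vehicle in both sexes. In male cultures 1, 2 and 3 it had 18.2, 19.1 and 22.7 with pravastatin (239, 324 and 300 reads), against 3.61, 2.49 and 2.93 with vehicle (61, 41 and 56 reads). Female cultures 1, 2 and 3 had 19.4, 9.84 and 9.98 with pravastatin (353, 149 and 150 reads), against 1.85, 2.14 and 1.56 with vehicle (33, 37 and 26 reads). Female cultures 2 and 3 were the lowest of 6 with pravastatin, while female culture 2 was above female culture 1 with vehicle. The log2 change was 2.51 ± 0.16 (SE, rank 6) and the ratio of means 6.80.

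Papln had the highest vehicle values of the 6 genes. It stood at 109, 111 and 117 in male cultures 1, 2 and 3 with pravastatin (1438, 1886 and 1550 reads), against 25.0, 21.8 and 20.01 with vehicle (422, 359 and 383 reads). Female cultures 1, 2 and 3 had 99.5, 34.3 and 49.8 with pravastatin (1813, 519 and 749 reads), against 21.4, 8.02 and 9.74 with vehicle (382, 139 and 162 reads). The gap between treatments was narrow, since female culture 2 with pravastatin was 1.37 times male culture 1 with vehicle. The log2 change was 2.24 ± 0.25 (SE, rank 10) and the ratio of means 4.92.

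Pla2g3 was, like Papln, lowest in female cultures 2 and 3. Male cultures 1, 2 and 3 had 24.6, 27.5 and 30.2 with pravastatin (324, 466 and 400 reads), against 6.80, 5.71 and 6.11 with vehicle (115, 94 and 117 reads). Female cultures 1, 2 and 3 had 26.9, 7.59 and 12.0 with pravastatin (491, 115 and 180 reads), against 6.21, 2.08 and 2.64 with vehicle (111, 36 and 44 reads). The lowest pravastatin library was 1.12 times the highest vehicle library, the narrowest gap of the 6 genes. The log2 change was 1.97 ± 0.28 (SE, rank 13) and the ratio of means 4.36.

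Dnaaf3 had the lowest mean value of the 6 genes with pravastatin, and its change differed most between cultures. Male cultures 1, 2 and 3 had 12.0, 10.3 and 11.9 with pravastatin (158, 175 and 157 reads), against 1.36, 1.09 and 1.20 with vehicle (23, 18 and 23 reads). Female cultures 1, 2 and 3 had 10.5, 4.56 and 4.79 with pravastatin (191, 69 and 72 reads), against 0.559, 0.981 and 1.503 with vehicle (10, 17 and 25 reads). Female culture 1 thus had the lowest vehicle value and female culture 3 the highest of the 6 cultures, while with pravastatin female culture 1 was above female cultures 2 and 3. The log2 change was 2.49 ± 0.22 (SE, rank 7) and the ratio of means 8.06. It was 2.85 at a constant of 0.1, 2.17 at a constant of 1 and 2.97 with edgeR. Gramd2 was above 1 in 5 of 6 vehicle libraries and Dnaaf3 in 4 of 6, and both passed the filter with the help of their pravastatin libraries.

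**Figure D2:**
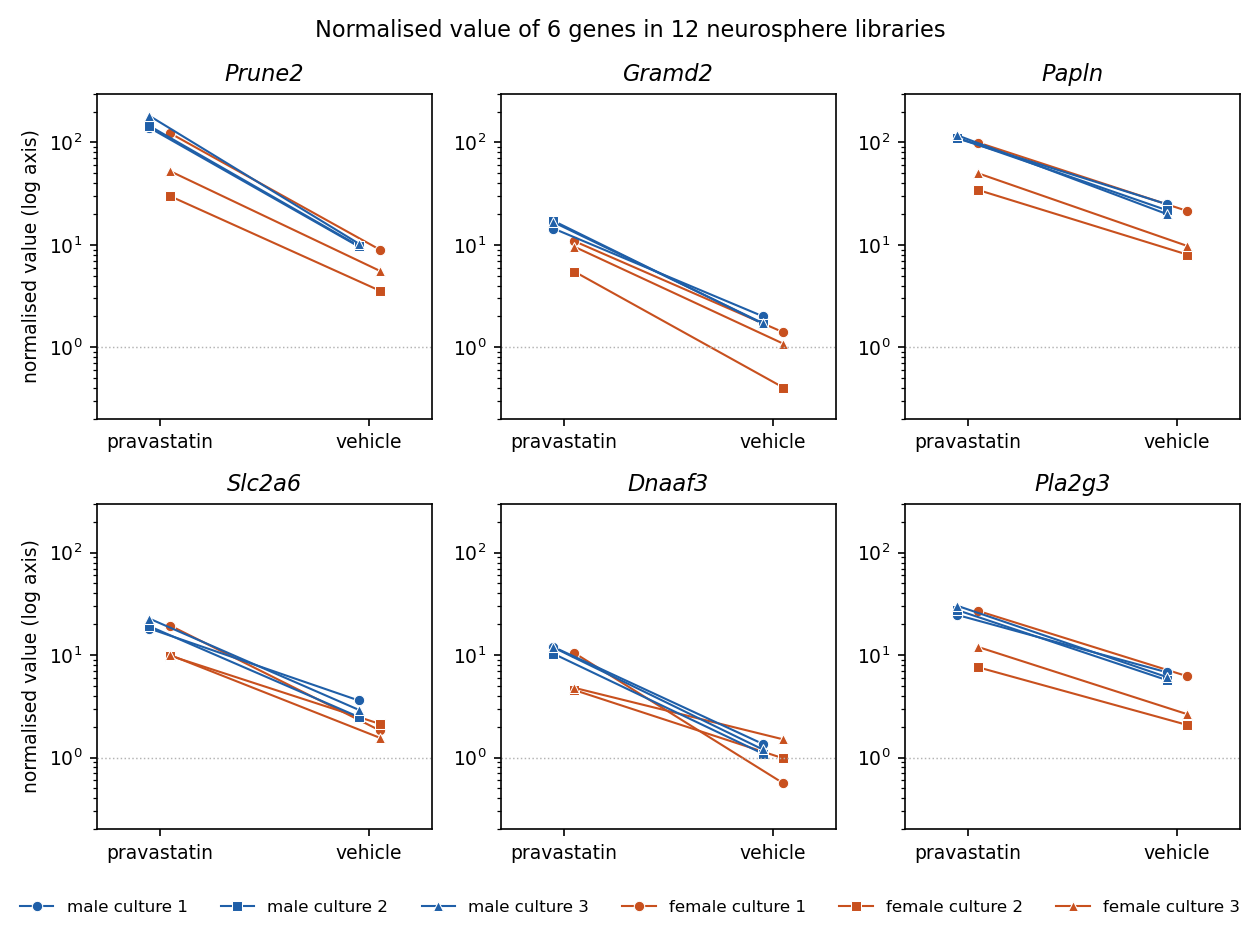
Normalised value (log axis) of each gene with pravastatin (left) and vehicle (right), with a line for each of 6 cultures, males in blue and females in orange, and a dotted line at the filter value of 1. Each line is higher at its pravastatin end, and female cultures 2 and 3 (orange squares and triangles) lie lowest with pravastatin in all 6 panels.

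In all 6 genes no pravastatin library overlapped a vehicle library, which the choice of the genes fixed. Over all genes tested 2.25% were higher in this way, and 1.54% were called higher at an adjusted p under 0.05 (limma, Benjamini-Hochberg) and above 1.5-fold. The median log2 change of all genes was -0.01, and 11.7% were higher in 6 of 6 cultures. Of the 15 called genes with the largest change that were higher in 6 of 6 cultures, 6 are the genes described here and the CBP genes Mvd (log2 change 2.37 ± 0.12, SE), Tm7sf2 (2.34 ± 0.09) and Lss (2.14 ± 0.15) stood among them. Acss2, which makes acetyl-CoA from acetate, had a log2 change of 2.60 ± 0.12 from far higher values, 864 ± 184 with pravastatin and 143 ± 34.4 with vehicle (SD, n = 6 each). In this fit, which has no term for each culture, the SE of each of the 6 genes was 0.16 to 0.30. That of these 4 lipid genes was 0.09 to 0.15. These SEs also hold differences in level between cultures. With a term for each culture the SE of the 6 genes ran from 0.06 in Papln to 0.21 in Dnaaf3, and that of the lipid genes is not given here.

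Per kilobase of merged exon, Papln was the highest of the 6 genes with both treatments, at 15.4 ± 6.30 with pravastatin and 3.13 ± 1.24 with vehicle (normalised value per kilobase, SD, n = 6 each). With pravastatin Prune2 (5.497 ± 2.88), Slc2a6 (5.14 ± 1.66), Pla2g3 (4.57 ± 1.99) and Dnaaf3 (4.05 ± 1.54) followed with overlapping ranges, and Gramd2 was last at 2.01 ± 0.74. With vehicle the order was Papln, Pla2g3 (1.049 ± 0.43), Slc2a6 (0.756 ± 0.234), Dnaaf3 (0.502 ± 0.149), Prune2 (0.393 ± 0.135) and Gramd2 (0.226 ± 0.094). Prune2, whose exons are the longest, thus ranked 2 with pravastatin and 5 with vehicle. Neighbours in these orders overlapped in range, although Papln was above the next gene, and Gramd2 below the gene before it, in 6 of 6 libraries of each treatment. Prune2 was above Slc2a6 in 4 of 6 pravastatin libraries.

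The change within a culture, as a log2 difference, ran from 2.89 to 4.07 in Prune2, from 2.57 to 3.00 in Gramd2, from 1.97 to 3.08 in Slc2a6, from 2.03 to 2.52 in Papln and from 1.65 to 2.22 in Pla2g3. In Dnaaf3 it ran from 1.401 in female culture 3 to 3.37 in female culture 1. In ratios, Dnaaf3 was 18.7 times its vehicle value in female culture 1 (95% interval 9.97 to 39.7) and 3.19 times in female culture 3 (2.00 to 5.25), and these intervals did not overlap. The Gramd2 ratio of 13.6 in female culture 2 rested on 7 vehicle reads, and its interval of 6.30 to 34.8 held the ratios of the other 5 cultures, 7.18 to 10.1. Prune2 was 17.6 times its vehicle value in male culture 3 (15.2 to 20.5), against 8.32 times in female culture 2 (6.37 to 11.0). These intervals are exact and cover counting error only.

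**Figure D3:**
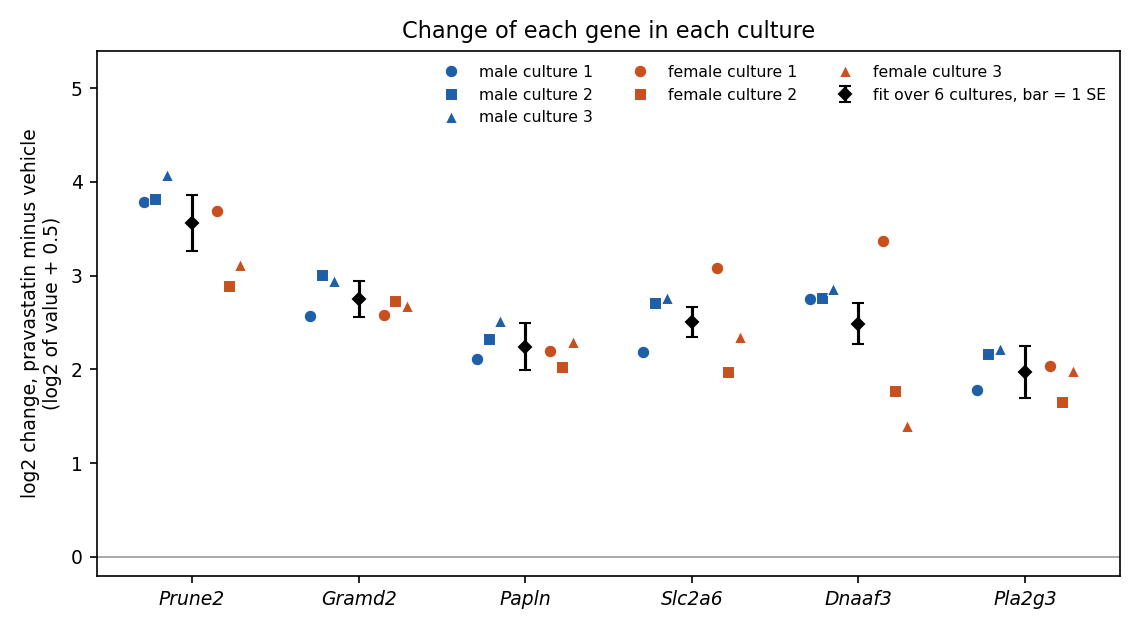
Log2 change (pravastatin minus vehicle) of each gene in each of 6 cultures, males in blue left of the fit and females in orange right of it, with the fitted change over all cultures as a black diamond with 1 SE. All points are above 0, and the female cultures of Dnaaf3 spread from 1.401 to 3.37.

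The title of the series names a comparison of the sexes. The choice did not compare the sexes, but it asked for a rise in all 6 cultures and so in both sexes. Genes that rise in 1 sex only could not be among the 6, and the sex tests use the same values. None of the 6 genes passed the test of the male change minus the female change (limma, adjusted p = 1.00 for each). The difference was 0.66 on the log2 scale in Prune2 (95% interval -0.65 to 1.97), with a change of 3.89 in males and 3.23 in females. In Dnaaf3 it was 0.61 (-0.31 to 1.53), with 2.79 in males and 2.18 in females. In Gramd2 it was 0.18 (-0.70 to 1.06), in Pla2g3 0.17 (-1.12 to 1.45), in Papln 0.14 (-1.02 to 1.31) and in Slc2a6 0.08 (-0.66 to 0.83). Each of these intervals holds 0 and also differences of more than 1.5-fold. In the model with a term for each culture the intervals were narrower. That of Prune2 was 0.29 to 1.03 and did not hold 0, although its adjusted p was 0.63. Those of Papln (-0.13 to 0.41) and Pla2g3 (-0.22 to 0.55) held 0 and no difference above 1.5-fold. Gramd2 (-0.26 to 0.62), Slc2a6 (-0.47 to 0.64) and Dnaaf3 (-0.20 to 1.42) had intervals that held both. The adjusted p of these 5 genes ran from 0.70 in Dnaaf3 to 0.95 in Slc2a6. Of 15093 genes 0 passed this test (0.0%) with limma, DESeq2 or edgeR, while 132, 100 and 137 genes (0.875%, 0.663% and 0.908%) had an unadjusted p under 0.05 with these tools. With a term for each culture 0 passed and 1098 (7.27%) had an unadjusted p under 0.05.

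The 6 genes had higher mean values in males with both treatments, and none passed the test. The share of all genes with a higher mean in males is not given here. With pravastatin the male minus female log2 difference was 1.41 ± 0.42 (SE) in Prune2, 1.01 ± 0.37 in Papln, 0.99 ± 0.41 in Pla2g3, 0.91 ± 0.28 in Gramd2, 0.84 ± 0.30 in Dnaaf3 and 0.66 ± 0.24 in Slc2a6 (adjusted p = 0.59 for each). With vehicle it was 0.87 ± 0.37 in Papln, 0.82 ± 0.41 in Pla2g3, 0.75 ± 0.42 in Prune2, 0.73 ± 0.28 in Gramd2, 0.57 ± 0.24 in Slc2a6 and 0.23 ± 0.30 in Dnaaf3 (adjusted p from 0.28 to 0.65). Over all genes 0.0398% passed an adjusted p under 0.05 with pravastatin, and 0.0398% with vehicle. Without female cultures 2 and 3, which leaves 1 female culture, the difference with pravastatin was 0.54 in Gramd2, 0.33 in Prune2, 0.18 in Papln, 0.11 in Dnaaf3, 0.04 in Slc2a6 and 0.02 in Pla2g3. The vehicle difference was then 0.70 in Dnaaf3, 0.57 in Slc2a6, 0.28 in Gramd2, 0.13 in Prune2, 0.05 in Papln and -0.0030 in Pla2g3. Without female vehicle 1 the only female vehicle libraries left are 2 and 3, the vehicle libraries with high glial markers. The vehicle difference then passed in Papln (1.28, adjusted p = 0.018), Gramd2 (0.95, adjusted p = 0.030) and Pla2g3 (1.23, adjusted p = 0.031). In that fit 2614 genes passed the thresholds, against 6 with all libraries, and their share of the genes tested is not given here.

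With pravastatin the female cultures varied more than the male ones in all 6 genes, and the share of all genes that did so is not given here. Male libraries with pravastatin varied by 3.67% in Papln and 14.8% in Prune2 (SD as a percent of the mean, n = 3), while female libraries varied by 55.6% and 70.95%. With vehicle this held for 5 genes and not for Slc2a6, at 18.7% in males and 15.5% in females. With pravastatin, female cultures 2 and 3 were both below the other 4 cultures in all 6 genes, against 20.0% of all genes tested. With vehicle this held for Prune2, Gramd2, Papln and Pla2g3 (29.8% of all genes) and not for Slc2a6 or Dnaaf3. Gfap, a filament protein of astrocytes, stood at 507 and 69.3 in female cultures 2 and 3 with pravastatin and at 408 and 179 with vehicle, against at most 8.31 elsewhere. The myelin gene Mbp stood at 91.2 and 24.7 with pravastatin and at 76.3 and 29.0 with vehicle, against at most 2.66 elsewhere. Of the 12 listed stem cell and radial glia markers, 5 were higher in each of these 4 libraries than in the other 8, among them Sox2. Only 1 of the 12, Nes, was lower in each, and the shares of all genes are not given here. The part of these markers in the lower values was not tested. Without these cultures the pravastatin change of each of the 6 genes was no smaller, at 3.84 in Prune2, 2.94 in Dnaaf3, 2.78 in Gramd2, 2.68 in Slc2a6, 2.29 in Papln and 2.05 in Pla2g3 (log2).

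After the mean of each sex and treatment group was removed, Papln and Pla2g3 deviated together with Pearson's r = 0.99, Prune2 and Pla2g3 with r = 0.97 and Prune2 and Papln with r = 0.94 over the 12 libraries. Gramd2 went with these 3 at r = 0.83 to 0.85. Slc2a6 went with Dnaaf3 and with Pla2g3 at r = 0.65, with Prune2 at 0.64, with Papln at 0.60 and with Gramd2 at 0.29. Dnaaf3 went with the 4 genes other than Slc2a6 at r = 0.24 to 0.47. The largest deviations were in female libraries. Over the 6 male libraries alone Papln and Pla2g3 were at r = 0.65, and Prune2 and Pla2g3 also at 0.65. Prune2 and Papln were at 0.12, and Slc2a6 and Dnaaf3 at 0.66. Slc2a6 and Pla2g3 had the highest value there, 0.94, and Gramd2 and Dnaaf3 the lowest, 0.03. Gramd2 was at 0.85 with Pla2g3, at 0.73 with Slc2a6 and at 0.27 with Prune2. With female cultures 2 and 3 left out, 1 female culture is left and has no deviation. These values are descriptions, since libraries of a culture share their cells. Before the group means were removed all 15 pairs were at r = 0.89 or above, but the genes were chosen for rising together.

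**Figure D4:**
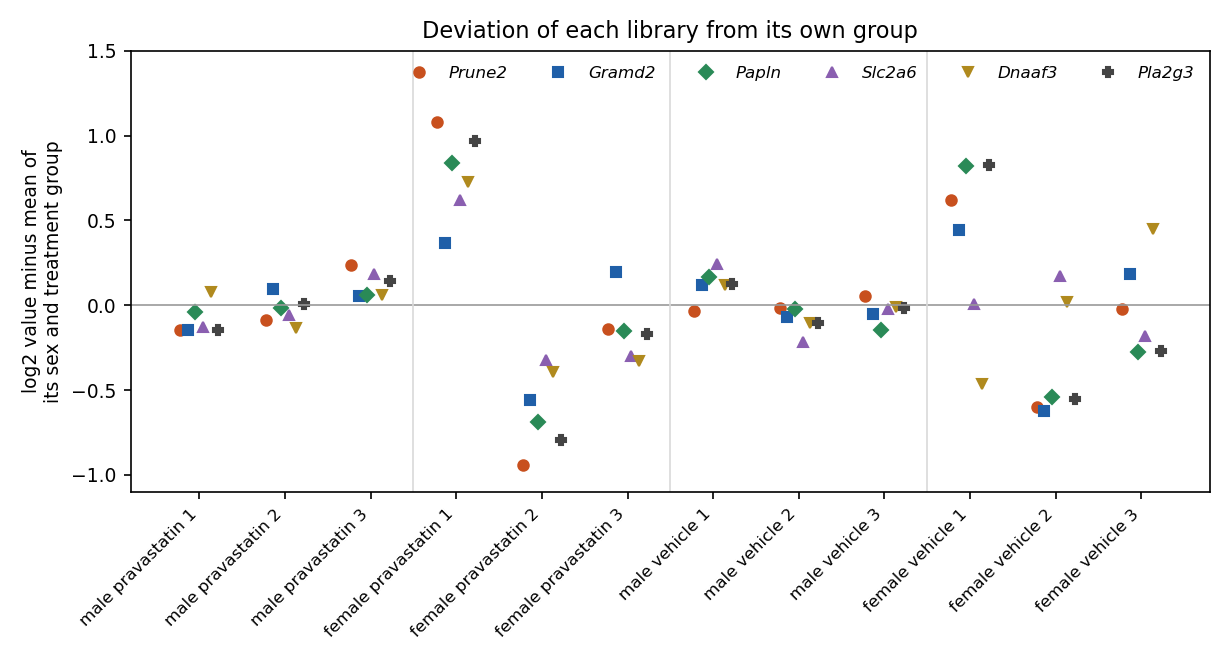
Log2 value of each gene in each library minus the mean of its sex and treatment group (y axis), with 12 libraries on the x axis, pravastatin left of vehicle and males left of females. Prune2 lay 1.08 above its group in female pravastatin 1 and 0.94 below it in female pravastatin 2, and male libraries stayed within 0.24 of their group.

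Over the 12 libraries, the tested genes most like Prune2 were Esyt2, a tether between the endoplasmic reticulum and the plasma membrane (Pearson's r = 0.99, log2 values), Grin1, an NMDA receptor subunit, and Acaca, which makes malonyl-CoA for fatty acid synthesis. Those most like Gramd2 were Slc25a1, the mitochondrial citrate carrier, Acaca and Prune2. For Papln and Pla2g3 they were each other, with Aco1 and Hsd17b12, an enzyme of fatty acid elongation. For Slc2a6 they were 0610007P14Rik, the CBP kinase Mvk and Arrdc2, and for Dnaaf3 Ggt7, Tlcd1 and Scpep1. All these r values were 0.98 or above. The genes described here were chosen for their rise with pravastatin, so r over both treatments largely reflects that rise. Such an r cannot show whether genes vary together apart from the treatment. The like genes were also picked for the highest r among 15093 genes. These values are therefore descriptions with no test. With group means removed, the closest gene was Shc4 for Prune2, Gm3788 for Gramd2, Tmem55b for Slc2a6, 1110038F14Rik for Dnaaf3 and Papln for Pla2g3. Of these, Tmem55b and Papln are among the genes called higher with pravastatin.

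The gene families around the 6 genes were tested on the same contrast, at an adjusted p under 0.05. Over all genes 2.69% were higher and 0.311% lower by this rule, and 10.5% and 8.13% in the model with a term for each culture. Of 15 tested GRAM domain and contact site genes (17 listed), 5 rose and 0 fell, with a list median of 0.14. Esyt2 rose by 1.43 ± 0.12 (log2, SE, adjusted p = 1.34e-05), to 174 ± 43.8 in pravastatin libraries against 62.8 ± 5.75 in vehicle libraries (SD, n = 6 each). Gramd1a, which carries cholesterol from the plasma membrane to the endoplasmic reticulum, rose by 0.57 ± 0.05 (adjusted p = 3.31e-05), and its relative Gramd1b by 0.91 ± 0.18 (adjusted p = 0.015). Gramd1b did not pass without male vehicle 2, at 0.84 (adjusted p = 0.0503). Esyt1, another tether, rose by 0.52 ± 0.10 and Osbpl8, a lipid exchanger of contact sites, by 0.33 ± 0.05. Gramd1c, Gramd3 and Gramd4 had log2 changes of 0.02, -0.06 and -0.12 and did not pass.

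No tested gene in the lists around Prune2, Papln, Slc2a6 and Pla2g3 passed with limma in the model without culture terms. None of 4 tested BCH domain and PRUNE genes passed, and their log2 changes ran from -0.07 to 0.02. Of 17 tested ADAMTS and ADAMTS-like genes 0 passed (median 0.11), although with a term for each culture 6 rose, among them the protease Adamts1 (log2 change 0.52 ± 0.20, adjusted p = 0.20, and with that term 6.38e-06). None of 6 tested SLC2A sugar transporters passed, with Slc2a8 nearest at 0.38 ± 0.10 (adjusted p = 0.057) and 2 higher with a term for each culture. Of 10 tested phospholipase A2 genes 0 passed (median 0.00), with Pla2g6 at 0.20 ± 0.07 (adjusted p = 0.19). With a term for each culture Pla2g6 rose (adjusted p = 0.037) and Pla2g7, at -0.44, fell (adjusted p = 0.014). At an unadjusted p under 0.05 limma, edgeR and DESeq2 each had 0 BCH domain, 3 ADAMTS, 1 SLC2A and 2 phospholipase A2 genes, and of these DESeq2 called the SLC2A gene after adjustment and edgeR called none. The share of all genes with an unadjusted p under 0.05 on this contrast is not given here, so these counts have no background. CBP enzymes give the scale, with 20 of 20 higher and a median of 1.64.

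Dnaaf3 itself was chosen on this contrast and has no test. None of the tested genes of motile cilia passed with limma in the model without culture terms. Of 11 tested dynein arm assembly factors 0 passed and their median log2 change was -0.15, with 1110004E09Rik at -0.30 ± 0.09 (adjusted p = 0.10) nearest. The 6 tested axonemal dynein chains ran from -0.22 to -0.05 with 0 past the threshold. Among 4 tested motile cilia and ependymal genes 0 passed. Foxj1, the transcription factor that drives motile cilia genes, had 20.3 ± 1.67 with pravastatin and 25.8 ± 4.99 with vehicle (SD, n = 6 each), a log2 change of -0.32 ± 0.10 (adjusted p = 0.14). At an unadjusted p under 0.05 limma, edgeR and DESeq2 each had 1 assembly factor, 0 dynein chains and 2 cilia genes, and after adjustment DESeq2 called the assembly factor and edgeR called none. The share of all genes at this unadjusted p is not given here. In the model with a term for each culture 1110004E09Rik (adjusted p = 0.012) and Foxj1 (adjusted p = 0.011) fell, and so did Ruvbl2 (-0.21, adjusted p = 0.045), while the cilia gene Ccno rose (0.34, adjusted p = 0.034, higher in 5 of 6 cultures). Over all genes 10.5% rose and 8.13% fell in this model.

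**Figure D5:**
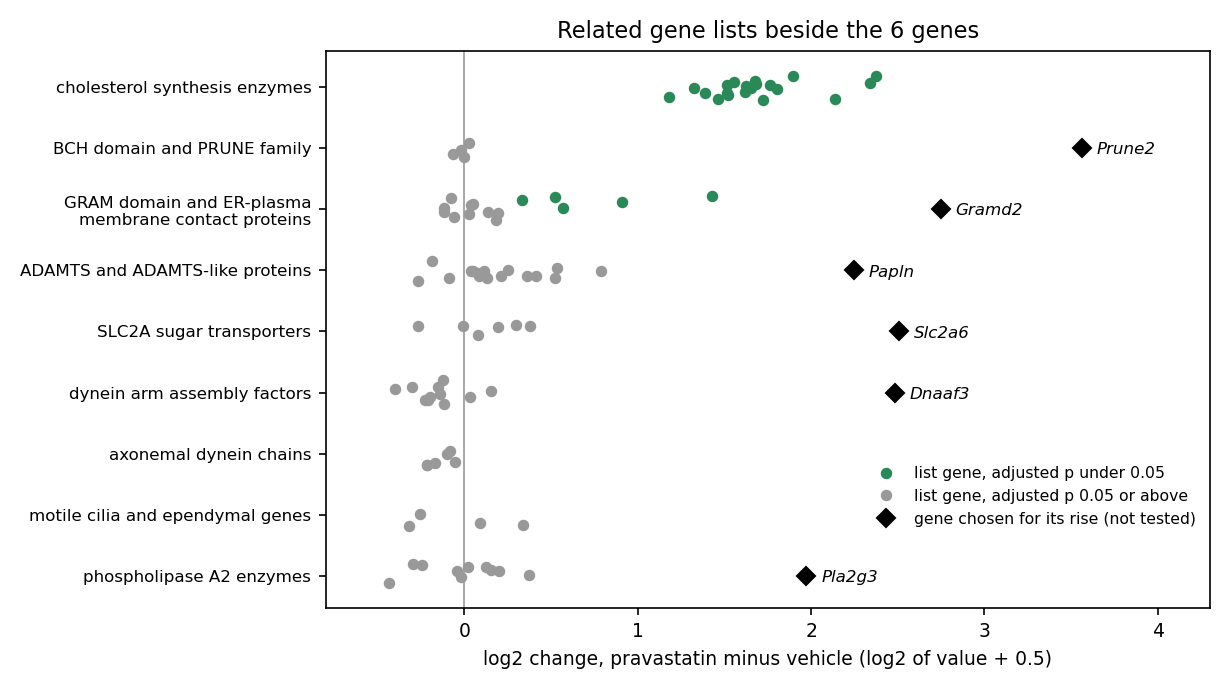
Log2 change (pravastatin minus vehicle) of the genes of 9 lists, green where the adjusted p was under 0.05 and grey otherwise, with the 6 genes chosen for their rise as black diamonds. The 20 CBP enzymes and 5 contact site genes are green, and no other listed gene is.

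The nearest genes in the table that do not overlap the 6 genes were taken as neighbours. Tnni3, which overlaps Dnaaf3 and was higher with pravastatin in 6 of 6 cultures, is not among them and is described below. None of the 11 tested neighbours passed an adjusted p under 0.05 with limma, edgeR or DESeq2, and each of these had 2 at an unadjusted p under 0.05. For that unadjusted p the share of all genes is not given here. Pkm, a glycolytic enzyme gene that ends 769 bases before Gramd2, had a log2 change of 0.27 ± 0.12 (adjusted p = 0.28) and was higher in 6 of 6 cultures. Cacfd1, 274 bases from Slc2a6, stood at -0.01 ± 0.08 (adjusted p = 0.98), and Numb, 1652 bases from Papln, at 0.15 ± 0.09 (adjusted p = 0.43). Vps13a and Rfk beside Prune2 were at -0.04 and -0.14, Senp8 beyond Gramd2 at -0.15, Tnnt1 and the pseudogene Gm9463 beside Dnaaf3 at -0.10 and 0.04, and 8430429K09Rik and Selenom beside Pla2g3 at -0.05 and 0.24. With a term for each culture Pkm rose (adjusted p = 0.0017) and Rfk fell (adjusted p = 0.045). By the same rule 10.5% of all genes rose and 8.13% fell in that model. Adamtsl2, next to Slc2a6, did not pass the filter.

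Tnni3, singled out here after its values were seen because its exons meet those of Dnaaf3, is given as a description with no test. It stood at 3.42, 2.53 and 2.49 in male cultures 1, 2 and 3 with pravastatin, against 0.769, 0.547 and 0.941 with vehicle. Female cultures 1, 2 and 3 had 2.91, 1.19 and 1.73 with pravastatin, against 0.783, 0.289 and 0.661 with vehicle. The log2 change was 1.28 ± 0.19 (SE), below that of Dnaaf3 and higher in 6 of 6 cultures. Its vehicle values were all under 1, so that it passed the filter through its pravastatin libraries alone. Whether reads from Dnaaf3 transcripts that run on into Tnni3 add to its values was not tested.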

How the data were processed

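Sequencing duplicates were merged by the authors, who used TopHat2 2.1.1 (GRCm38), Cufflinks and HTSeq to obtain counts per gene. In the deposited table each signal value is such a count over an effective library size, and 100% of them came out as whole reads within 0.001 read. Fold changes, p-values and FDR columns deposited by the authors are their own test results and were not used.

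Values were compared as log2(value + 0.5) with limma 3.58.1 (R 4.3.3), for 15093 genes above 1 in at least 6 of 12 libraries, with sex as a covariate, and adjusted by Benjamini-Hochberg over all of them. A fit over the 4 groups gave the sex contrasts. Calls needed an adjusted p under 0.05 and 1.5-fold, and listed genes, neighbours and the interaction the adjusted p alone. Alternatives were edgeR 4.0.16 and DESeq2 1.42.0 on recovered reads (edgeR called 231 genes higher), other constants, filters and scalings, a replicate block and leaving out libraries. Read and ratio intervals are exact at 95%. The model was tested on simulated data.

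Same-numbered libraries deviated together (r = 0.871, 0.871 and 0.428 in females, 0.182, 0.179 and 0.303 in males), so the numbers were taken to pair libraries. Per the labels, the vehicle libraries re-analyse samples of another submission. The labels do not say whether both treatments were prepared together. Coordinates are from GENCODE vM21 and promoter sequences from RefSeq (GRCm38.p6). The genes, lists and tests were chosen with earlier results of these data known. Named genes are the 6 genes, the 15 largest rises, up to 4 genes of each list by p, the nearest tested neighbours, the genes most like each, and set marker and lipid genes. Some genes that these rules name are not reported here.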

Additional observations from a re-analysis of the deposited data

How the results depend on the processing

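The pravastatin change of the 6 genes kept its direction under each alternative that gave a value. The choice of genes with a rise in all 6 cultures fixed this direction, so only the sizes are described. The change of Gramd2 was 2.44 with a constant of 1, 3.10 with 0.1, 3.15 with edgeR (TMM or RLE factors, or the replicate block) and 3.16 with DESeq2. Requiring a value above 1 in all 12 libraries removed Gramd2 and Dnaaf3. Leaving out single libraries gave 2.07 to 2.43 in Papln.

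The male minus female difference in change, called for no gene, turned sign in Gramd2 with edgeR (-0.016 with TMM, -0.0071 with RLE, -0.028 with the replicate block), DESeq2 (-0.012) and a constant of 0.1 (-0.045). In Slc2a6 it was -0.094 and -0.085 with edgeR under TMM and RLE factors, -0.087 with DESeq2, -0.061 with edgeR and the replicate block, and -0.53 without female cultures 2 and 3, where Dnaaf3 had -0.58. Leaving out single libraries gave -0.10 to 0.49 in Gramd2, -0.27 to 0.56 in Papln, -0.076 to 0.39 in Slc2a6 and -0.25 to 0.65 in Pla2g3. For the vehicle difference it gave 0.41 to 0.95 in Gramd2, 0.60 to 1.28 in Papln, -0.0057 to 0.45 in Dnaaf3 and 0.54 to 1.23 in Pla2g3, which was -0.0030 without female cultures 2 and 3. The cause was not tested.

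Over all genes, 232 were higher and 2 lower, against 350 and 52 in edgeR with the replicate block, 300 and 27 in limma with it, and 416 and 46 without female cultures 2 and 3. Lower genes numbered 11 with DESeq2, 4 with values rescaled to library totals, 4 with a constant of 0.1, 1 without the sex term and 0 to 9 without single libraries. Sex calls past both thresholds, 6 with vehicle and 5 with pravastatin, were 23 and 17 with DESeq2, 0 and 0 above 1 in all libraries, and 24 and 15 without female cultures 2 and 3. Leaving out single libraries gave 1 to 2614 with vehicle and 1 to 5 with pravastatin. The highest was without female vehicle 1, which leaves only the female vehicle libraries with high glial markers.

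With the replicate block in limma 10.5% of all genes were higher and 8.13% lower at an adjusted p under 0.05. List counts moved mostly with the replicate block in limma and in edgeR. ADAMTS genes higher were 6 and 5, SLC2A genes higher 2 and 2, dynein assembly genes lower 2 and 2, cilia genes 1 higher and 1 lower in both, phospholipase A2 genes 1 higher and 1 lower in both, and neighbours called 2 and 2. Without female cultures 2 and 3 these were 4 ADAMTS genes higher, 1 SLC2A gene higher and 1 lower, 3 dynein assembly genes lower, 1 cilia gene higher, 1 phospholipase A2 gene lower and 3 neighbours. DESeq2 called 1 SLC2A gene higher and 1 dynein assembly gene lower. Leaving out single libraries gave 0 to 2 ADAMTS, 0 to 1 SLC2A and 0 to 1 dynein assembly genes. Motif counts in the 250 bases before the start alone were the same. Of the 18 genes most like the 6, Spearman's rho kept 4.

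Alternatives that drop female cultures 2 and 3 (beyond the planned ones) and edgeR with the block were chosen after seeing the data. Dnaaf3 and Gramd2 rest on 7 to 34 vehicle reads a library, which limits their ratios.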

Other observations

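Among the other genes with the largest rises from low values were Pdgfrb, a growth factor receptor of mural and meningeal cells, and Snap25, a protein of neuronal vesicle release. Both were picked on this contrast and are given with no test. Pdgfrb had 15.9 with pravastatin against 1.11 with vehicle (means of 6 libraries each, log2 change 3.63 ± 0.37, SE), and Snap25 28.0 against 5.22 (2.22 ± 0.15). Pdgfrb stood at 4.15 in female vehicle 2, against 0.365 to 0.601 in the other 5 vehicle libraries, so that it passed the filter on low values through its pravastatin libraries.

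Of the other 3 tested mural and fibroblast markers 0 passed with limma, edgeR or DESeq2, and 0 had an unadjusted p under 0.05 with these tools, with Acta2 at -0.55, Col1a1 at -0.35 and Cspg4 at 0.31. With a term for each culture Cspg4 rose (adjusted p = 0.0076, higher in 6 of 6 cultures) and Acta2 fell (adjusted p = 0.012, lower in 6 of 6). Rgs5, Col1a2, Dcn and Lum were not in the table. Of the other 7 tested neuron markers 0 passed with limma, edgeR or DESeq2 (1, 2 and 2 at an unadjusted p under 0.05), while Syt1 at 0.97, Syn1 at 0.41 and Tubb3 at 0.38 passed with a term for each culture (adjusted p = 5.93e-05, 0.0064 and 0.026). With that term 10.5% of all genes rose and 8.13% fell. The share of all genes at an unadjusted p under 0.05 is not given here.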
